A study of Mus musculus with 16 samples.

Results

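The H3K4me3 peaks of early anagen were compared between EA-HFSCs, the bulge stem cells of the hair follicle, and non-EA-HFSCs, the other α6-integrin-positive cells sorted from the same skin. Peaks that met a peak of the other population over at least 1 bp are called shared, and the others one-sided. The EA-HFSC list held 21482 peaks and the non-EA-HFSC list 24498, together 45980 of the 219698 peaks in the 12 lists of the series. EA-HFSCs were sorted as CD34+ and α6-integrin+ and non-EA-HFSCs as CD34- and α6-integrin+, both from wild-type CD1 x FVB mice at PD22 to PD25. The labels give the mice as male. For comparison, LC-HFSCs and non-LC-HFSCs, sorted by the same markers in late catagen at PD38 to PD44, were used. CD34- cells are a mixture, which the study describes as mainly epidermis with outer root sheath of the lower follicle. Mice were pooled for each chromatin preparation, and the reads of independent experiments were pooled before peaks were called. With 1 list per population, differences could not be checked against replicates, and the populations are described without tests. In a sorted mixture, a mark carried by fewer cells and a weaker mark in every cell cannot be told apart.

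Trimethylation of lysine 4 on histone H3 marks the nucleosomes around the starts of active genes, and is found above all where the DNA is rich in CpG dinucleotides. Genes that are silent but carry both H3K4me3 and the Polycomb mark H3K27me3 are called bivalent, and many of them encode developmental regulators. The bulge is the part of the outer root sheath in which the stem cells of the follicle reside. At the onset of anagen stem cells are activated to grow a new hair, while the basal cells of the epidermis give rise to the keratinised layers of the skin surface.

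The labels could be checked against the sorting markers. Cd34 (chr1:196765015-196787486 in mm9) had a peak at its start in EA-HFSCs and none in non-EA-HFSCs, and Itga6, the α6-integrin gene, had a peak at a transcript start in both. The Cd34 protein was used to sort the cells, so the Cd34 peak describes the sort. Of 15 leukocyte genes, 13 had no peak at the annotated start in either list, including Ptprc, Cd74 and Cd3e. With any transcript start counted, as for Itga6, 4 of the 15 were marked in both lists and 11 in neither. The Y-linked genes Ddx3y, Uty and Eif2s3y were marked in both lists, and no peak lay within 5000 bp of the Xist start in either.

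For 8 genes on which the results turn, the 200 bases that end 1 base before the annotated start are shown in mm9, 5′ to 3′ on the strand of the gene, with every CpG in capitals. The genes were taken from those named in the results after their values had been seen, to show starts of each side with differing CpG content. For the EA-HFSC side, Cd34 (chr1:196764815-196765014, + strand), Prdm12 (chr2:31495357-31495556, + strand) and Gfra2 (chr14:71289727-71289926, + strand) had a peak at the start in EA-HFSCs only, and Lhx2 (chr2:38194601-38194800, + strand) had far more covered bases in EA-HFSCs.
Cd34: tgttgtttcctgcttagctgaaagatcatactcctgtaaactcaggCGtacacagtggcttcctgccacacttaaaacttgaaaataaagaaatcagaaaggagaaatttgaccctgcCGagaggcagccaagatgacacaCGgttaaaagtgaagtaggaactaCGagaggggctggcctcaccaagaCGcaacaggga
Prdm12: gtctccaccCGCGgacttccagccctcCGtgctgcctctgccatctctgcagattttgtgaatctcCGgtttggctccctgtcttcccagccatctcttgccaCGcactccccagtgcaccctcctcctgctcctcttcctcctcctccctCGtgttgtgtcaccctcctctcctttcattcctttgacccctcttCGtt
Gfra2: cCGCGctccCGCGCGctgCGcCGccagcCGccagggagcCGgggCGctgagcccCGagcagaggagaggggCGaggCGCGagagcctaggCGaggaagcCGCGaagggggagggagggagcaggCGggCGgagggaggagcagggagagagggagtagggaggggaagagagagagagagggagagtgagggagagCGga
Lhx2: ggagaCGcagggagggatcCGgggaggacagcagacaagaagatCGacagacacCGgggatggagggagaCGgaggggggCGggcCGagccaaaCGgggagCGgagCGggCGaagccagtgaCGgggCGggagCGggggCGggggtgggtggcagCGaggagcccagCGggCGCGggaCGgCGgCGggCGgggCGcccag
Cd34 had 5 CpG in these 200 bases and Prdm12 had 7, whereas Gfra2 had 20 and Lhx2 had 24. For the non-EA-HFSC side, Ly6d (chr15:74593998-74594197, - strand), Krt77 (chr15:101700137-101700336, - strand), Skint1 (chr4:111678674-111678873, + strand) and Tgm3 (chr2:129837885-129838084, + strand) had a peak at the start in non-EA-HFSCs only.
Ly6d: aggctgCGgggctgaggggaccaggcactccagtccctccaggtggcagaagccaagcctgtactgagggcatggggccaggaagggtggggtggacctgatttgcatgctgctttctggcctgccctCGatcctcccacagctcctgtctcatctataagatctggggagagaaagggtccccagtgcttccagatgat
Krt77: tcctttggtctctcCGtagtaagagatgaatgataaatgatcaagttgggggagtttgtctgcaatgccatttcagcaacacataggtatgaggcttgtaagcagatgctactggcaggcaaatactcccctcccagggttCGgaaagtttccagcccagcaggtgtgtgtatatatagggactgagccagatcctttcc
Skint1: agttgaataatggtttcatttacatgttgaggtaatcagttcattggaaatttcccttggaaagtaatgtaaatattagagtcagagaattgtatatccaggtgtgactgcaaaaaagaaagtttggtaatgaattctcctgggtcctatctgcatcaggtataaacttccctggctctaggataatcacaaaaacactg
Tgm3: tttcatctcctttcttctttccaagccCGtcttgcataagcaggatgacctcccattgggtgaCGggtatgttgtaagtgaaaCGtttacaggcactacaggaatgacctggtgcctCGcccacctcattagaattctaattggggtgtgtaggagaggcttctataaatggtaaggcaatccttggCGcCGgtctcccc
Skint1 had no CpG in its 200 bases, Ly6d and Krt77 had 2 each, and Tgm3 had 6. Skint1 and Tgm3 held the letters TATAAA on the strand of the gene, and the other 6 genes shown did not.

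Most H3K4me3 peaks were common to the stem cells and the other cells, and those found on one side were narrow and weak. In EA-HFSCs 17954 peaks were shared and 3528 were one-sided, or 16.4% of the list (95% Wilson interval 15.9 to 16.9%). In non-EA-HFSCs 18971 were shared and 5527 one-sided, or 22.6% (22.04 to 23.1%). These intervals, like all others given, cover counting error only. With equal numbers of top-scoring peaks taken from both lists the order turned, to 19.3% in EA-HFSCs and 15.9% in non-EA-HFSCs. That setting shortened only the non-EA-HFSC list, by its lowest-scoring peaks. Once peaks scoring under 100 were dropped on both sides, the order held, at 11.3% and 15.2%. The larger share in non-EA-HFSCs thus depended on how peaks were selected, and the part of list length in it was not tested. The non-EA-HFSC list had 1.14 times as many peaks (1.12 to 1.16), but covered less of the genome, 48.8 Mb against 56.1 Mb, of which 41.2 Mb was covered in both. The stem cell peaks were wider, with a median of 2279 bp against 1671 bp. Of the shared EA-HFSC peaks, 1075 (5.99%) met 2 or more peaks of the other list, while 155 shared non-EA-HFSC peaks (0.817%) did so.

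One-sided peaks had a median width of 1186.5 bp in EA-HFSCs (quartiles 988 and 1499 bp), against 2569 bp for shared peaks. The corresponding medians in non-EA-HFSCs were 930 bp (738 and 1171 bp) and 2045 bp. The score, given by MACS as -log10 of the p-value multiplied by 10, starts at 50. It had medians of 77.0 and 862 for one-sided and shared EA-HFSC peaks, and of 78.6 and 1144 in non-EA-HFSCs. Scores under 100 were found for 68.3% of the one-sided peaks in EA-HFSCs and 67.4% in non-EA-HFSCs. Peaks of this strength were one-sided in 56.6% and 64.1% of cases, whereas among peaks scoring 500 to 1000 the shares were 1.12% and 1.75%. At a score of 500 or more, 51 one-sided peaks remained in EA-HFSCs and 59 in non-EA-HFSCs. The number of reads behind each peak is not part of the lists, and its part in the weak one-sided peaks was not tested.

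**Figure D1:**
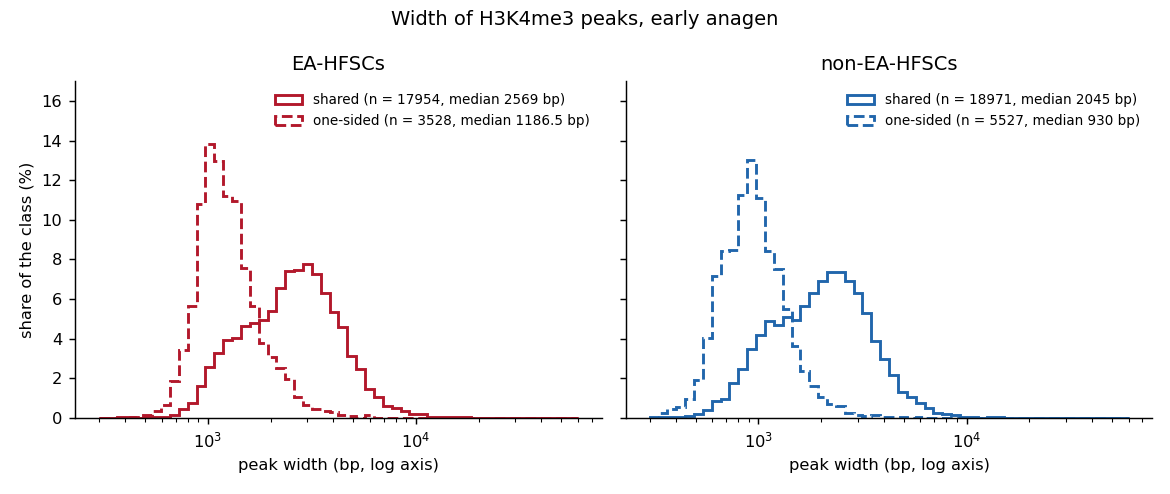
Width of shared (solid) and one-sided (dashed) H3K4me3 peaks in EA-HFSCs (left) and non-EA-HFSCs (right), as the share of each class in percent against width in bp on a log axis. The one-sided peaks lie to the left of the shared peaks in both lists, with medians of 1186.5 and 2569 bp in EA-HFSCs and of 930 and 2045 bp in non-EA-HFSCs.

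**Figure D2:**
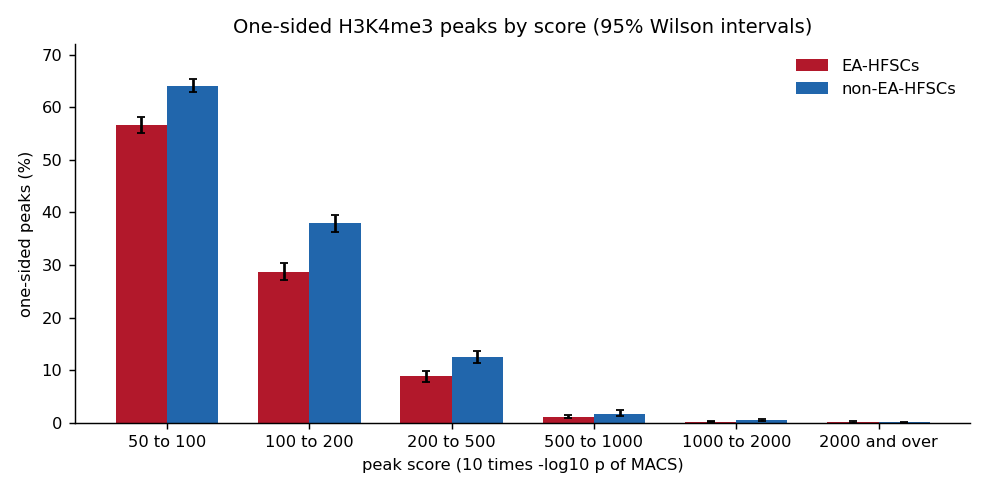
Share of one-sided peaks (bars, percent, with 95% Wilson intervals) among the peaks of each score range, in EA-HFSCs (red) and non-EA-HFSCs (blue). The share falls in both lists from 56.6% and 64.1% at scores of 50 to 100 to 0.118% and 0.109% at scores of 2000 and over.

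Shared peaks sat on gene starts and one-sided peaks mostly did not. The start of a protein-coding gene lay inside 61.3% of the shared and 9.92% of the one-sided EA-HFSC peaks, and inside 57.1% of the shared and 3.55% of the one-sided non-EA-HFSC peaks. One-sided peaks of the stem cells thus held a start in 350 of 3528 cases (interval 8.98 to 10.95%), and those of the other cells in 196 of 5527 (3.09 to 4.07%). With any transcript start counted, the shares for one-sided peaks were 14.4% and 6.19%. From a one-sided peak to the nearest start, the median distance was 25892 bp for the stem cells and 24919 bp for the other cells. By their middle, 41.5% of one-sided EA-HFSC peaks lay in introns and 42.7% between genes, against 45.2% and 45.6% of one-sided non-EA-HFSC peaks. Few of them lay beside a peak of the other list, since 7.79% of the EA-HFSC and 7.94% of the non-EA-HFSC one-sided peaks had such a peak within 1000 bp.

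**Figure D3:**
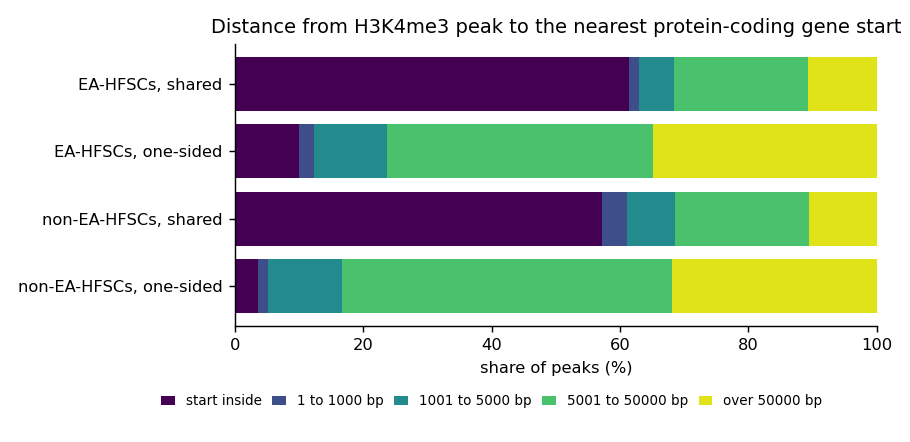
Share of peaks (percent) by the distance in bp from the peak to the nearest start of a protein-coding gene, for shared and one-sided H3K4me3 peaks of both lists. A start lies inside 61.3% and 57.1% of shared peaks, but inside 9.92% and 3.55% of one-sided peaks of EA-HFSCs and non-EA-HFSCs.

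The 15 widest one-sided peaks of EA-HFSCs measured 4424 to 7884 bp. Only 4 of them held a start, at Cd34, Gm14226, Gfra2 and Adra2c, and 4 lay more than 50000 bp from the annotated start of any protein-coding gene. The widest (chr13:63356358-63364241) lay in an intron of 2010111I01Rik, 234345 bp from the Fancc start. It was followed by a peak of 7028 bp in an intron of Nfix, a nuclear factor I family gene (chr8:87261010-87268037), 14104 bp from the start of G430095P16Rik. The Cd34 peak (chr1:196764265-196770584) came next with 6320 bp, and its score of 3100 was the highest of any one-sided EA-HFSC peak. A peak of 6227 bp lay in an intron of Efnb2, which encodes a membrane-bound ephrin, 19630 bp from its start. In an intron of Wwp2, a peak of 6024 bp with a score of 2907 (chr8:110067729-110073752) was 1392 bp from the microRNA gene Mir140. The mature sequence of miR-140-3p in RefSeq, with its seed (bases 2 to 8) in capitals, is shown because this gene was the closest of any type to one of the strongest one-sided peaks.
mmu-miR-140-3p: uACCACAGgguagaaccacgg
Gfra2, the receptor for neurturin, had a peak of 5897 bp (chr14:71288088-71293984), and a peak of 5780 bp lay 4623 bp from the start of Chat, the enzyme that makes acetylcholine. The remaining wide peaks lay near Ctbp2 (104075 bp from its start), Pole4 (10874 bp), Gm12824 (158790 bp), Prdm12 (515 bp), Bnc2 (171134 bp) and Camsap3 (4020 bp). Scores ranged from 76.2 for the Gm14226 peak to 3100, so that some of these peaks were broad but weak.

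In non-EA-HFSCs the 15 widest one-sided peaks measured 3765 to 6198 bp and 10 of them held a gene start. Their scores were 716 to 3100, with a median of 1491 against 429 in EA-HFSCs. The widest (chr7:126999666-127005863) lay in an intron of Dcun1d3, 33512 bp from the Lyrm1 start. The next was a peak of 6085 bp at Cyp2w1, a cytochrome P450 gene (chr5:139824702-139830786). The Ly6d peak of 6015 bp (chr15:74590821-74596835) covered the start of this keratinocyte surface protein gene. Peaks at Skint1 (4739 bp), which encodes an immunoglobulin-like protein of the epidermis, and at 2310007B03Rik (4632 bp) shared the top score of 3100 with Ly6d. Starts were also held by the peaks at 1600014C10Rik (4785 bp), Tmprss4 (a membrane serine protease gene, 4581 bp), Krt77 (a type II keratin gene, 4543 bp), Fcgbp (3983 bp), Figf (which encodes the growth factor VEGF-D, 3770 bp) and Oas1f (3765 bp). The other wide peaks lay 178642 bp from G930045G22Rik, 16240 bp from Gm10272, 107712 bp from Pvrl1 and, in an intron of Rgs12, 39196 bp from Hgfac.

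At the level of genes, a gene counted as marked if any peak came within 3000 bp of its start. Of 22367 protein-coding genes, 13020 were marked in both populations and 8538 in neither. Marked in EA-HFSCs only were 488 genes, or 2.18%, and in non-EA-HFSCs only 321 genes, or 1.44%. Of these, 425 and 282 had no peak of the other list within 5000 bp. The extent of the mark was then measured as the number of bases covered by peaks within 5000 bp to either side of the start.

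Of the 10 genes with the widest mark in EA-HFSCs and none in non-EA-HFSCs, 5 were also marked in LC-HFSCs and 3 in non-LC-HFSCs. Prdm12, a transcription factor gene of sensory neurons, had 6697 covered bases in EA-HFSCs and 0 in each of the other 3 lists. Gfra2 had 5897 in EA-HFSCs, 2832 in LC-HFSCs and none in the CD34- populations. Cd34 had 5751 in EA-HFSCs and 5704 in the stem cells of late catagen, and 0 in both CD34- populations. Prdm12 was thus found in 1 of the 4 lists, and Gfra2 and Cd34 in the stem cells of both ages. Pou3f3, a POU-domain transcription factor gene, had 5232 covered bases in EA-HFSCs alone, as did Kcnn3, a calcium-activated potassium channel gene, with 4269. Adra2c, an α2-adrenergic receptor gene, had 4782 in EA-HFSCs and 2697 in LC-HFSCs. Sorcs3, a sortilin-related receptor gene, had 4112 at early anagen and 4209 at late catagen. For these 2 genes no bases were covered in either CD34- population. The other genes of these 10 also had peaks outside the stem cells at late catagen. Fam180a had 4216 in EA-HFSCs, 3147 in LC-HFSCs and 2056 in non-LC-HFSCs, Gm14226 had 5003 in EA-HFSCs and 4910 in non-LC-HFSCs, and Ebf4 had 4061 and 1221.

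Among the 10 genes with the widest mark in non-EA-HFSCs only, every gene was also marked in non-LC-HFSCs. Cyp2w1 had 6085 covered bases in non-EA-HFSCs, 3273 in non-LC-HFSCs and 0 in both stem cell populations. Ly6d had 6015 in non-EA-HFSCs, 3702 in non-LC-HFSCs, 3258 in LC-HFSCs and 0 in EA-HFSCs. Skint1 had 4739 and 4440 in the CD34- cells of early anagen and late catagen, Krt77 had 4543 and 3328, 1600014C10Rik had 4785 and 4307, and Figf had 3770 and 2791, all with 0 in the stem cells of both ages. Fcgbp (5402 covered bases in non-EA-HFSCs), 2310007B03Rik (4632), Tmprss4 (4581) and Oas1f (3765) were marked in LC-HFSCs as well, so that 5 of the 10 were marked in the stem cells of late catagen.

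Genes marked in both populations were covered more widely in EA-HFSCs as a rule. Medians were 3267 bp for the stem cells and 2754 bp for the other cells, and the median difference was 453 bp (quartiles 92 and 953 bp), with more cover in EA-HFSCs at 81.0% of the 13020 genes. A surplus of 1000 bp or more was seen in EA-HFSCs at 3054 genes (23.5%) and in non-EA-HFSCs at 295 genes (2.27%). Differences of single genes are therefore read against the 453 bp by which EA-HFSCs led at the median gene.

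The largest surplus in EA-HFSCs was that of Lhx2, a LIM-homeodomain transcription factor gene of the bulge, with 7997 against 2351 covered bases. In late catagen Lhx2 had 3429 in LC-HFSCs and 0 in non-LC-HFSCs. The adhesion receptor gene Gpr56 (7781 against 2150) and the adenylate cyclase gene Adcy1 (6776 against 1575) were likewise at 0 in non-LC-HFSCs, with 2308 and 3421 in LC-HFSCs. The other 7 of the 10 genes were Cspg4 (10001 against 4401, the whole window in EA-HFSCs), Tst (9455 against 4101), Thap3 (7919 against 2903), Lrrc4 (8325 against 3548), Shank1 (7230 against 2553), Msi1 (5703 against 1053) and Clec11a (8543 against 3997). Shank1 and Clec11a have neighbouring starts, so their windows share bases. In the opposite direction Chit1, a chitinase gene, had 1487 covered bases in EA-HFSCs and 5811 in non-EA-HFSCs. It was followed by Slc22a4, a solute carrier gene (3914 against 7898), and the tetraspanin gene Tspan5 (3187 against 6953). Serpinb2, a serpin gene of keratinocytes, had 1716 against 5156, and in late catagen it had 4404 in non-LC-HFSCs and 0 in LC-HFSCs. The list went on with 2010016I18Rik (2676 against 6344), Niacr1 (2351 against 5730), Slc6a4 (2783 against 5951), S1pr5 (4976 against 7968), Dennd2d (2676 against 5666) and Chst3 (3421 against 6398), of which 2010016I18Rik and Dennd2d share most of their window.

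**Figure D4:**
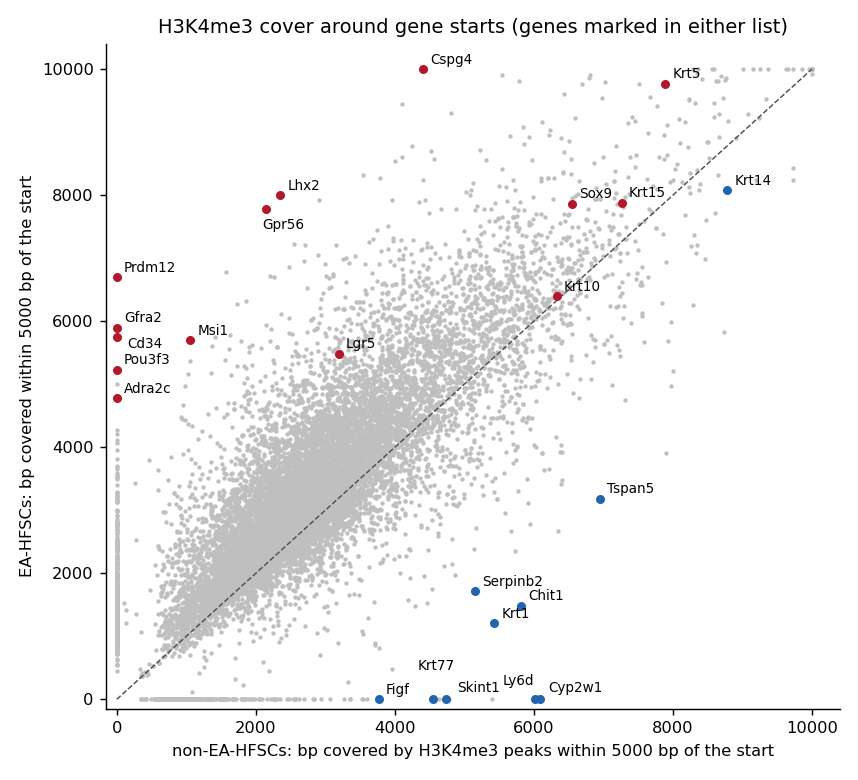
Bases covered by H3K4me3 peaks within 5000 bp of the start of each gene marked in either list, EA-HFSCs (vertical axis) against non-EA-HFSCs (horizontal axis), in bp. Most genes (grey points) lie above the dashed line of equal cover, named genes are red where EA-HFSCs and blue where non-EA-HFSCs had more, Cd34 and Gfra2 lie on the left edge with 0 bp in non-EA-HFSCs, and Ly6d and Cyp2w1 lie on the lower edge with 0 bp in EA-HFSCs.

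Most genes of the bulge were marked in both populations, and those marked in both mostly had more cover in the stem cells. Of 15 bulge transcription factor genes, 13 were marked at the annotated start in both populations and none on one side. The other 2, Runx1 and Nfib, were marked in both at another transcript start. The median difference over the 13 was 1485 bp, and 8 of them (61.5%, against 23.5% of all genes marked in both) had a surplus of 1000 bp or more in EA-HFSCs. Sox9 had 7867 covered bases in EA-HFSCs and 6551 in non-EA-HFSCs, Nfatc1 had 8567 and 7876, Gli2 had 6496 and 4120, and Foxc1 had 9033 and 6234. Of 15 surface, keratin and secreted markers of the bulge, Cd34 and Angptl7 (1994 bp against 0) were marked in EA-HFSCs only (13.3%, against 2.18% of all genes) and none in non-EA-HFSCs only. Cd34 describes the sort, so only Angptl7 of these genes stands apart from it. Lgr5, a receptor for R-spondins, had 5484 against 3192, and Krt15 had 7883 against 7263, a difference of 620 bp that is close to the median of all genes. Wider differences were found at the secreted factor genes Dkk3 (5515 against 1906), Sfrp1 (7931 against 4430) and Postn (5453 against 2623) and at Npnt (6535 against 3058), which encodes nephronectin of the basement membrane.

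Epidermal genes went both ways. Of 25 genes of basal and differentiated epidermis, 14 were marked in both populations, 4 in non-EA-HFSCs only and 2 in EA-HFSCs only. The 16% marked in non-EA-HFSCs only stand beside 1.44% of all genes, and the 8% marked in EA-HFSCs only beside 2.18%. These 4 were Krt1, the type II keratin of the suprabasal layers, Tgm3, a transglutaminase gene of cornification, Dsc1, which encodes a desmosomal cadherin, and Casp14, the caspase gene of the cornified layer. Krt1 had 5427 covered bases in non-EA-HFSCs and 1209 in EA-HFSCs, the latter more than 3000 bp from the start, and 5089 and 0 in non-LC-HFSCs and LC-HFSCs. Tgm3 had 2944 and 1245 in the CD34- cells of early anagen and late catagen, Casp14 had 2250 and 1293, and Dsc1 had 3061 and 0, with 0 in the stem cells of both ages. The EA-HFSC only genes were Tgm1 (1318 bp against 0) and Cdsn (1063 against 353). Krt10, the partner keratin of Krt1, did not follow it, with 6396 against 6332 covered bases, and Lor had 4239 against 2688. The basal keratin genes Krt5 (9768 against 7891) and Krt14 (8082 against 8782) were widely marked in both. Ivl had no peak in any of the 4 lists. Over the 14 genes marked in both, the median difference was -177 bp, against 453 bp over all genes. A surplus of 1000 bp or more was found in EA-HFSCs at 3 of them and in non-EA-HFSCs at another 3 (21.4% each, against 23.5% and 2.27% of all genes marked in both).

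Of 15 genes of the upper follicle and sebaceous gland, 11 were marked in both populations, with a median difference of -75 bp. Krt79, a keratin gene of the infundibulum (2533 bp), and the defensin gene Defb6 (1178 bp) were marked in non-EA-HFSCs only (13.3%, against 1.44% of all genes). Both had nearly the same cover in non-LC-HFSCs, 2458 and 1151 bp, and 0 in LC-HFSCs. Genes of the hair matrix, inner root sheath and shaft numbered 17 in the annotation, of which 9 were marked in both, Krt28 and Padi3 in EA-HFSCs only (11.8%, against 2.18% of all genes), and 6, all keratin genes, in neither. Padi3 had nearly equal cover (1804 against 1618 bp), and its non-EA-HFSC peak lay more than 3000 bp from the start. Over the 9 genes marked in both, the median difference was 1184 bp. A surplus of 1000 bp or more was found in EA-HFSCs at 6 of them (66.7%, against 23.5% of all genes marked in both) and in non-EA-HFSCs at none. The matrix regulator genes Lef1 (6892 against 3992), Dlx3 (7038 against 3427) and Hoxc13 (6468 against 3896) were among the 6, whereas Foxn1 (2834 against 2912) was nearly equal.

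Pathway genes were marked in both populations for the most part. All but 2 of 45 BMP and TGF-beta pathway genes were marked in both, as were 37 of 38 cell cycle genes. Of 42 FGF, Hedgehog and Notch pathway genes, 34 were marked in both, beside 58.2% of all genes. No gene of these lists was one-sided. Over all genes 2.18% were marked in EA-HFSCs only and 1.44% in non-EA-HFSCs only. With shares this low, the absence is not read as a trait of the pathways. Of the 43 BMP and TGF-beta genes marked in both, 17 (39.5%, against 23.5% of all genes) had a surplus of 1000 bp or more in EA-HFSCs. In non-EA-HFSCs 2 had one (4.65%, against 2.27%). For the 34 FGF, Hedgehog and Notch genes the counts were 14 (41.2%) and 1 (2.94%). Cell cycle genes lay below the share of all genes in EA-HFSCs, with 4 of 37 (10.8%), and 1 (2.70%) had a surplus in non-EA-HFSCs. Their median difference was 435 bp. Genes with a large EA-HFSC surplus are named here. Among ligand antagonists, Grem1, a BMP antagonist gene, had 6702 covered bases in EA-HFSCs against 2261, and Hhip, which encodes a Hedgehog-binding inhibitor, had 4253 against 1225. Among receptors, Fgfr1 had 7215 against 3152. Of 50 Wnt pathway genes, 41 were marked in both and 2 (4%, against 2.18% of all genes) at the start in EA-HFSCs only. The 2 were Sfrp4 (2896 against 1396), a secreted Wnt inhibitor gene, and Rspo1 (2749 against 0), a Wnt-enhancing ligand gene. The Wnt ligand genes Wnt3 (5205 against 8003) and Wnt3a (3250 against 5269) and the receptor gene Fzd10 (5822 against 8733) were covered more in non-EA-HFSCs. Of the 41, 17 (41.5%, against 23.5% of all genes) had a surplus of 1000 bp or more in EA-HFSCs and 5 (12.2%, against 2.27%) in non-EA-HFSCs. Both shares were above those of all genes marked in both, and the median difference was 774 bp. Of 37 integrin, laminin and basement membrane genes, 31 were marked in both. Itga9 (1088 bp against 0) was marked in EA-HFSCs only, which is 2.70% of the list and close to the 2.18% of all genes. Of the 31, 12 (38.7%) had a surplus of 1000 bp or more in EA-HFSCs and 3 (9.68%) in non-EA-HFSCs.

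Markers of other cell types of the skin were given the same count. None of 10 melanocyte, 15 leukocyte and 6 Merkel cell genes was one-sided, and 6, 13 and 2 of them were marked in neither population. Only 2.18% of all genes were marked in EA-HFSCs only and 1.44% in non-EA-HFSCs only, so little is read from this absence. Of 12 fibroblast and dermal papilla genes, Prrx1 (2987 bp), Twist1 (2449 bp) and Dcn (876 bp) were marked in EA-HFSCs only (25.0%, against 2.18% of all genes), 4 were marked in both and 5, among them Col3a1 and Lum, in neither. Of 12 endothelial genes, the transcription factor gene Sox17 (2391 bp) was marked in EA-HFSCs only (8.33%), and Pecam1 and Cdh5 were marked in neither. These 4 genes had no covered base in the other 3 lists, and Prrx1, Twist1 and Sox17 also had an H3K27me3 peak within 3000 bp of the start in EA-HFSCs. Col1a1 (2713 against 1970) and Pdgfra (4417 against 4458) were marked in both. The part of other cell types in the EA-HFSC only genes was not tested.

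The study defined sets of genes by messenger RNA level in bulge and non-bulge cells on microarrays, and only genes with a signal in its own ChIP-seq or array data entered them. Of 217 matched genes upregulated in the bulge, 189 were marked in both populations, 12 (5.53%) in EA-HFSCs only and none in non-EA-HFSCs only, where the shares over all genes were 2.18% and 1.44%. Of the 189, 131 (69.3%, against 23.5% of all genes marked in both) had a surplus of 1000 bp or more in EA-HFSCs and none (against 2.27%) in non-EA-HFSCs, with a median difference of 1508 bp. Among the 12 were Cd34, which describes the sort, Il31ra (3531 bp), Bgn (3288 bp), Hoxd8 (3219 bp), Vit (3201 bp) and Bdnf (3167 bp). Bdnf was, however, marked in both at another transcript start. Of 99 genes downregulated in the bulge, 80 were marked in both, 11 (11.1%) in non-EA-HFSCs only and none in EA-HFSCs only. The surplus lay with non-EA-HFSCs at 28 of the 80 (35.0%, against 2.27% of all genes) and with EA-HFSCs at 2 (2.50%, against 23.5%), and the median difference was -760.5 bp. Those with the most cover were 2310007B03Rik, Figf, Oas1f, Epgn (3355 bp), an EGF-family ligand gene, Sectm1a (3276 bp) and Tgm3. The arrays compared the same kinds of cells, and the sets were chosen in that study, so the counts are not independent evidence of direction.

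One-sided peaks seldom had a counterpart in late catagen, but the strong ones usually did. Of the 3528 one-sided EA-HFSC peaks, 10.5% overlapped an LC-HFSC peak (interval 9.52 to 11.5%) and 7.91% a non-LC-HFSC peak (7.06 to 8.85%). Of the 5527 one-sided non-EA-HFSC peaks, 3.64% overlapped an LC-HFSC peak (3.17 to 4.16%) and 22.9% a non-LC-HFSC peak (21.8 to 24.0%). Shared peaks did so in 77.4% and 88.2% of cases for EA-HFSCs and in 76.5% and 86.5% for non-EA-HFSCs. The LC-HFSC list, with 14718 peaks, is smaller than the non-LC-HFSC list, with 18996. The order for one-sided EA-HFSC peaks turned once peaks scoring under 100 were left out of every list (5.78% on LC-HFSCs, 6.85% on non-LC-HFSCs), and the order for non-EA-HFSC peaks did not (2.25% and 25.7%). Of the 51 one-sided EA-HFSC peaks with a score of 500 or more, 36 overlapped an LC-HFSC peak and 11 a non-LC-HFSC peak. Of the 59 such non-EA-HFSC peaks, 56 overlapped a non-LC-HFSC peak and 17 an LC-HFSC peak. Among the 15 widest one-sided peaks, 11 of EA-HFSCs lay on an LC-HFSC peak and 2, at Efnb2 and Gm14226, on a non-LC-HFSC peak, whereas all 15 of non-EA-HFSCs lay on a non-LC-HFSC peak and 7 on an LC-HFSC peak.

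**Figure D5:**
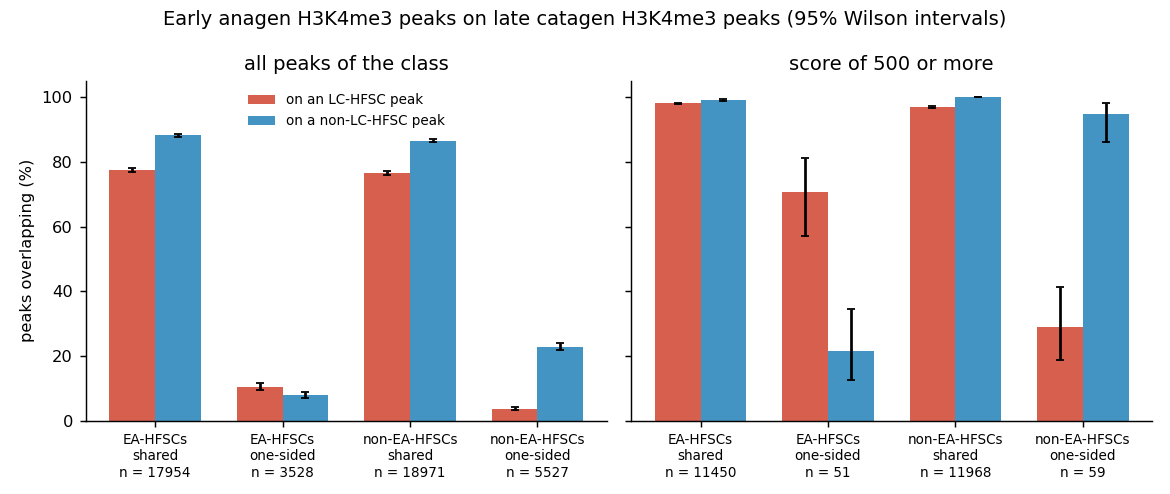
Share of early anagen H3K4me3 peaks (percent, with 95% Wilson intervals) that overlap an H3K4me3 peak of LC-HFSCs (red) or non-LC-HFSCs (blue), for all peaks of each class (left) and for those with a score of 500 or more (right). One-sided peaks overlap in at most 22.9% of cases on the left, while on the right 70.6% of one-sided EA-HFSC peaks lie on LC-HFSC peaks and 94.9% of one-sided non-EA-HFSC peaks on non-LC-HFSC peaks.

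Gene starts gave the same picture. Of the 488 genes marked in EA-HFSCs only, 63 (12.9%) were marked in LC-HFSCs and 43 (8.81%) in non-LC-HFSCs, and 398 in neither. Of the 321 marked in non-EA-HFSCs only, 19 (5.92%) were marked in LC-HFSCs and 116 (36.1%) in non-LC-HFSCs. Marked in the same population and not in the other at both ages were 47 genes of the stem cells and 99 of the CD34- cells.

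Many genes marked in EA-HFSCs only carried the Polycomb mark as well. H3K27me3 peaks lay within 3000 bp of the start of 254 of the 488 genes (52.0%, interval 47.6 to 56.4%) in EA-HFSCs and of 291 (59.6%, 55.2 to 63.9%) in non-EA-HFSCs. For the 321 genes marked in non-EA-HFSCs only, the counts were 94 (29.3%) in EA-HFSCs and 93 (29.0%) in non-EA-HFSCs. Genes marked with H3K4me3 in both had H3K27me3 in 11.6% and 15.6% of cases, and genes marked in neither in 12.4% and 12.5%. Of the 10 genes named above with the widest EA-HFSC only mark, 8 had H3K27me3 in non-EA-HFSCs, all but Gm14226 and Fam180a, and 5 had it in EA-HFSCs, namely Prdm12, Gfra2, Pou3f3, Adra2c and Sorcs3. At Cd34, H3K27me3 was found in non-EA-HFSCs and not in EA-HFSCs. None of the 10 genes with the widest non-EA-HFSC only mark had an H3K27me3 peak in either population. Counted over peaks, 20.7% of one-sided EA-HFSC peaks overlapped non-EA-HFSC H3K27me3, beside 13.9% of shared EA-HFSC peaks. Of one-sided non-EA-HFSC peaks 5.97% did, beside 13.8% of shared non-EA-HFSC peaks. With EA-HFSC H3K27me3 instead, 13.4% of one-sided and 9.57% of shared EA-HFSC peaks overlapped. For non-EA-HFSC peaks these shares were 5.41% and 9.37%. H3K9me3 peaks of EA-HFSCs overlapped 49.2% of the shared and 10.01% of the one-sided EA-HFSC peaks, whereas those of non-EA-HFSCs overlapped 0.769% and 0.567%. By the study's methods, sequencing did not reach saturation for H3K9me3 and H3K27me3, and whether the H3K9me3 lists of the populations are comparable was not tested, so no difference between the populations is read from them.

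The DNA under one-sided peaks taken as a whole was poorer in CpG. The ratio of observed to expected CpG had a median of 0.48 under shared and 0.30 under one-sided EA-HFSC peaks, and of 0.52 and 0.26 in non-EA-HFSCs. Where a gene start lay inside a one-sided peak, the medians were 0.51 in EA-HFSCs and 0.29 in non-EA-HFSCs, beside 0.54 and 0.58 for shared peaks with a start inside. The one-sided EA-HFSC peaks at gene starts were thus close to the shared ones in this ratio. In the 250 bases upstream of the start, the median number of CpG was 15 for genes marked in both (quartiles 9 and 22), 7 for EA-HFSC only genes (4 and 15), 4 for non-EA-HFSC only genes (2 and 8) and 2 for genes marked in neither (1 and 4), beside 8 over all genes. Of the EA-HFSC only genes, those with H3K27me3 in non-EA-HFSCs had a median of 10 CpG and the rest 5. The letters TATAAA, on either strand, were found in these 250 bases for 16.8% of non-EA-HFSC only genes (interval 13.1 to 21.3%), 6.35% of EA-HFSC only genes (4.51 to 8.88%) and 12.3% of all genes. Gfra2 and Skint1, printed above, stand near the opposite ends of this range with 20 and no CpG in 200 bases.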

How the data were processed

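H3K4me3 ChIP-seq peak lists of 4 populations were used, with H3K27me3 and H3K9me3 lists of the early anagen populations, 8 of 12 lists in all. The authors digested chromatin to mononucleosomes, aligned single-end reads to mm9 with Bowtie2 after trimming (Trimmomatic 0.22 in the submitters' processing notes), pooled replicates and ran MACS with the IgG sample of each population as control. The deposited score of each peak is 10 times the negative log10 of its p-value, and the lowest score of 50 is a p-value of 1e-05. H3K27me3 and H3K9me3 peaks were called by the authors at a looser p-value. Scores are capped near 3100 and were used only to filter and rank. Depth per peak is unknown from the lists, so no depth correction was possible.

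Overlaps, distances and covered bases were computed with Python 3.11.15 and numpy 2.4.6, after the steps had been tested on simulated intervals against direct counting. Genes were the 22367 protein-coding genes of GENCODE vM1 on NCBIM37, the assembly of mm9. No peak ran past a chromosome end there. Peaks on unplaced sequence (27 and 26) stayed in the peak counts, widths, scores, covered length, overlaps and shares. They had no distance to a gene start and no base composition. Positions are 1-based. A peak was assigned by its middle to a promoter (from 1000 bp before to 100 bp after a transcript start), exon, intron or the space between genes. Shares have 95% Wilson intervals. No test was made with 1 list per population.

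Named were the 15 widest and the highest-scoring one-sided peaks of each list, 10 genes on each side by covered bases, 10 marked in both with the largest difference each way, the one-sided members of the gene lists (up to 6 per side) and 13 marker genes. Other list members were named after their values were seen. The members and lists were chosen with earlier results of these data known. The gene lists came from general knowledge, and the 2 bulge sets from the study, of which 217 of 220 and 99 of 99 symbols matched. The alternatives were a score of at least 100, equal numbers of top-scoring peaks, the 19 autosomes, merging of peaks under 1000 bp apart, an overlap of 50%, a neighbour within 1000 bp, a window of 1000 bp and any transcript start. Added after the data had been seen were any transcript start for the gene lists, a score of at least 500, and starts of genes of any type.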

Additional observations from a re-analysis of the deposited data

Results flagged for a closer look

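At 27 of the 488 genes marked in EA-HFSCs only, the populations were on opposite sides at the 2 ages. In late catagen these genes were marked at the start in non-LC-HFSCs and not in LC-HFSCs. Among them were Gm14226, Ebf4, Agtr1a, Ahrr, Efnb3, Mgp and Tbx2. The reverse pattern was found at 2 of the 321 genes marked in non-EA-HFSCs only, Dgcr6 and Dnase1l3. The 13020 genes marked in both populations in early anagen were also uneven in late catagen. Of these, 634 were marked in non-LC-HFSCs and not in LC-HFSCs, and 129 the other way. As shares, 27 of 488 is close to 634 of 13020, and 2 of 321 (0.623%) is not above 129 of 13020 (0.991%). Neither count is therefore read as a trait of the one-sided genes. The LC-HFSC list is also the smaller, with 14718 peaks against 18996. With 1 list per population and age, these differences between ages were not tested. For comparison, 47 and 99 genes lay on the stem cell side and on the CD34- side at both ages.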

How the results depend on the processing

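No paired analysis was possible because there is 1 pooled list per population and mark. Of the values recomputed, 49 moved and 68 did not. Only the median cover difference could change sign, and it stayed positive. The order within a pair of values did turn in places, as the values below show. A share or median moved when it left its 95% interval, a gene count when it changed by more than 1.5 times, and the covered-length ratio when it changed by more than 1%. Within that limit, the genes marked in EA-HFSCs only and in non-EA-HFSCs only (488 and 321) became 554 and 288 with a score of at least 100, and 627 and 232 with equal numbers of peaks. The 19 autosomes alone moved none. In each pair below EA-HFSCs come first. With a score of at least 100, the peak number ratio was 1.08 and the covered-length ratio 0.859. The one-sided shares were then 11.3% and 15.2%, with median widths of 1499 and 1232 bp (shared 2803 and 2267 bp), and a start lay inside 22.1% and 7.70%. One-sided EA-HFSC peaks lay on LC-HFSC peaks in 5.78% and on non-LC-HFSC peaks in 6.85% of cases, non-EA-HFSC peaks in 2.25% and 25.7%, and 26.3% of the former lay on non-EA-HFSC H3K27me3. With equal numbers of top-scoring peaks, the covered-length ratio was 0.827 and the one-sided shares were 19.3% and 15.9%, so that their order turned. Shared medians were 2619 and 2110 bp, the one-sided non-EA-HFSC median 1048 bp with a start inside 4.51%, and the median cover difference 468 bp. One-sided EA-HFSC peaks then lay on non-LC-HFSC peaks in 10.8% of cases, and non-EA-HFSC peaks on LC-HFSC and non-LC-HFSC peaks in 5.12% and 32.1%. Merging peaks gave a number ratio of 1.10, one-sided shares of 15.4% and 21.97%, shared medians of 2632 and 2199 bp and a cover difference of 434 bp. With 50% of a peak covered, the shares were 20.1% and 23.5%, the one-sided EA-HFSC median was 1288 bp, 14.8% of these lay on LC-HFSC peaks, and 20.3% of one-sided non-EA-HFSC peaks on non-LC-HFSC peaks. Counting a neighbour within 1000 bp gave 15.1% and 20.8%. A window of 1000 bp put 1 gene upregulated in the bulge in non-EA-HFSCs only. Any transcript start put a start inside 14.4% and 6.19% of one-sided peaks. Chosen after seeing the data, any transcript start for the gene lists put 1 gene downregulated in the bulge in EA-HFSCs only, and starts of any gene type lay inside 11.7% and 4.61%. One-sided peaks with a score of at least 500, also chosen after seeing the data, lay on LC-HFSC and non-LC-HFSC peaks in 70.6% and 21.6% of cases for EA-HFSCs and in 28.8% and 94.9% for non-EA-HFSCs. The cause of these moves was not tested, beyond the stricter selection that each setting makes. Read depth per peak is not in the lists, so a weak peak of one list cannot be told apart from one just under the threshold in the other.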

Other observations

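The number of one-sided peaks varied along the genome. In 2173 windows of 1 Mb with any peak, the median number of one-sided peaks was 1 for EA-HFSCs and 2 for non-EA-HFSCs. The window richest in one-sided EA-HFSC peaks (chr10:120000001-121000000) held 14, against 3 of non-EA-HFSCs, and holds the starts of Wif1, a secreted Wnt inhibitor gene, Lemd3 and Msrb3. It was followed by the window with the Hoxd genes (chr2:74000001-75000000), with 12 against 3, and by the window with Krt14 and Krt17 (chr11:100000001-101000000), which had more of non-EA-HFSCs, 11 against 13. Another window, with Slc6a4 (chr11:76000001-77000000), had 9 against 13. The window with Sox9 (chr11:112000001-113000000) had 9 against 2, and the window with Nfib, a nuclear factor I gene of the bulge (chr4:82000001-83000000), had 10 against 2.

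Non-EA-HFSCs had 16 one-sided peaks in each of 3 windows. These were chr10:77000001-78000000, which also holds Krtap12-1, with 1 of EA-HFSCs, chr12:71000001-72000000 with 4, and chr15:85000001-86000000, which holds Wnt7b and Celsr1, with 3. The type II keratin cluster with Krt1, Krt5, Krt77 and Krt79 (chr15:101000001-102000000) had 14 against 7. These windows were taken from the 8 with the most one-sided peaks of each list, some of them for their genes, and the counts are descriptions.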
